A study of Mus musculus with 5 samples.

Results

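Kruppel-like factors (KLFs) are zinc finger transcription factors that share a DNA-binding end with the SP factors and read GC-rich and CACCC sequences. They differ in what the rest of the protein recruits: one group mainly activates, one binds the corepressor CtBP and one binds the corepressor Sin3. Several are known as immediate early genes, as brakes on the cell cycle or as regulators of epidermal differentiation. The 10 genes described here (Klf2, Klf3, Klf4, Klf5, Klf6, Klf7, Klf9, Klf10, Klf13 and Klf15) were taken by name from a count table of 24100 genes, and all 10 were found and had enough counts to be tested. They were chosen by their measured levels in this same comparison, quiescent stem cells against melanocytes, so their differences between the groups are descriptions without a test.

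Poly-A RNA was sequenced without strand information from sorted back skin cells of male mice with a mixed CD1 and C57Bl6J background. Quiescent melanocyte stem cells (McSC), from which hair follicles renew their pigment cells, came from the second telogen, the resting phase, at postnatal day 60 (replicate 1) and 62 (replicate 2), each a pool of 4 males. Melanocytes came from full anagen, the growth phase, at postnatal day 10, as pools of 3, 2 and 4 males in replicates 1 to 3. All mice carried Dct-eGFP, a green reporter driven by a gene of the pigment lineage, and those of the melanocyte group also Lef1-RFP. Both gates took eGFP-positive cells with medium to low integrin α6 and without CD31, CD45, CD140a, Sca1 or CD34. The melanocyte gate also required Lef1-RFP and c-Kit. Age, hair cycle stage, reporter and gate differ together, and their parts in a difference between the groups cannot be told apart. In bulk RNA, fewer cells of a type and less RNA per cell cannot be told apart either.

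Total counts ranged from 17512381 to 124530834 per library. Between the groups 55.4% of the 16953 genes tested were called (adjusted p under 0.05, edgeR's quasi-likelihood test with Benjamini-Hochberg adjustment), 26.2% higher in quiescent McSC and 29.1% higher in melanocytes. The share of calls on the melanocyte side was 52.6%, or 63.7% with scaling by library size alone, under which the all-gene median log2 fold change was 0.26 instead of 0.03. Levels below are CPM, counts scaled to a common library size after TMM normalisation, and every log2 fold change is melanocyte minus quiescent McSC with its standard error (SE).

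RNA of genes that mark other cell types than pigment cells was present in the libraries. The summed level of 8 melanocyte lineage markers (Dct, Tyrp1, Tyr, Pmel, Mlana, Sox10, Mitf and Kit) was 19060 and 20300 CPM in quiescent McSC and 2996, 17600 and 19160 CPM in melanocyte replicates 1 to 3. Melanocyte replicate 1 thus stood apart from the other melanocyte libraries, and of the 8 markers Sox10, Mitf and Kit were called higher in quiescent McSC and the other 5 not called. Leaving out any 1 of 3 libraries (both of quiescent McSC and melanocyte replicate 2) ended the call of Sox10 (edgeR adjusted p = 0.0574 to 0.158). The summed level of 8 hair matrix and shaft markers was 2952 to 4425 CPM in melanocytes and 18.5 to 46.2 CPM in quiescent McSC, and that of 7 fibroblast and dermal papilla markers was 1877 to 5240 against 11.6 to 39.8 CPM. The quiescent McSC libraries held keratinocyte RNA. The sum of 8 suprabasal markers was 1298 and 2420 CPM there and 274.3 to 400.1 CPM in melanocytes. That of 5 basal markers was 1788 and 2077 CPM in quiescent McSC and 2248 to 3224 CPM in melanocytes. The level of a KLF gene in either group is therefore the level in these libraries and is not assigned to a cell type.

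**Figure D1:**
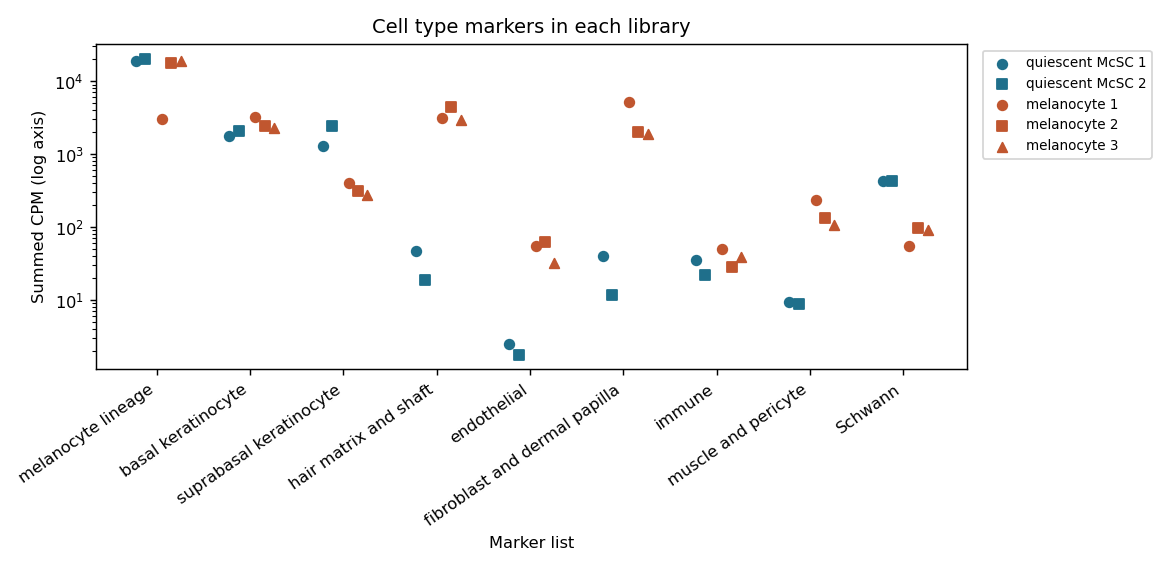
Summed CPM (log axis) of 9 marker lists in each of the 5 libraries, each point a library (blue, quiescent McSC; orange, melanocytes). Hair matrix, fibroblast, endothelial and muscle lists are higher in every melanocyte library, the suprabasal keratinocyte list is higher in both quiescent McSC libraries, and melanocyte replicate 1 is low for the melanocyte lineage list (2996 CPM).

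The sequences just before the start of the genes that differed most, and of Klf13, which stood at similar levels in both groups, are shown because KLF and SP proteins themselves read GC and CACCC boxes. Windows came from RefSeq (GRCm38.p6, the build mm10), where 8 of the 10 genes matched and Klf5 and Klf10 did not. Each line gives the 220 bases from 250 to 31 bases before 1 annotated start, on the gene's strand, with GC boxes (CCGCCC) and CACCC boxes (CACCC) of either strand in capitals; boxes nearer the start lie outside the printed stretch.
Klf2 (chr8:72318812-72319031, plus strand): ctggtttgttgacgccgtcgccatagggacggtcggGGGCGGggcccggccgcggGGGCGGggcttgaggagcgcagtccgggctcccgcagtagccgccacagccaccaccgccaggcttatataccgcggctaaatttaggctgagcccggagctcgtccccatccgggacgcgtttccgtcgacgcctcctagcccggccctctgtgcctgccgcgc
Klf4 (chr4:55532506-55532725, minus strand): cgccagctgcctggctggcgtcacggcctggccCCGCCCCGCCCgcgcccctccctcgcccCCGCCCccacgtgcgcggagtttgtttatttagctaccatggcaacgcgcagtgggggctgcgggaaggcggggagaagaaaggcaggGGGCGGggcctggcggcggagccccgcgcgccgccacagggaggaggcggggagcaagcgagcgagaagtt
Klf6 (chr13:5861239-5861458, plus strand): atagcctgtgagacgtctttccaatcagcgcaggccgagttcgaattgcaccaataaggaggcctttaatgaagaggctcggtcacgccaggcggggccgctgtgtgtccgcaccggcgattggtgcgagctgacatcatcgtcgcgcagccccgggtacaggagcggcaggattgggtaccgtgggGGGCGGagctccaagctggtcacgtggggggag
Klf9 (chr19:23140976-23141195, plus strand): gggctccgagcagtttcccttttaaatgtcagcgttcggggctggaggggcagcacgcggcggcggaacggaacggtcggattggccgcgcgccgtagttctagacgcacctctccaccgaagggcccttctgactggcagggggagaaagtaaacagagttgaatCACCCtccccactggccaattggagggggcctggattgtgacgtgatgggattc
Klf13 (chr7:63938946-63939165, minus strand): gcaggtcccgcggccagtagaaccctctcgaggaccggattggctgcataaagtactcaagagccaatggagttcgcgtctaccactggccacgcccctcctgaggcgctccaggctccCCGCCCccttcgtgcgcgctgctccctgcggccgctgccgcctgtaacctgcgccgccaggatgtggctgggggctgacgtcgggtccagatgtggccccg

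Matches were counted on both strands in windows of 300 bases (250 before to 50 after the start). A GC box was in 7 of the 8 KLF windows, all but that of Klf9, against 35.7% of all 32851 RefSeq windows, and a CACCC box was in 6 of 8, against 57.5%. The KLF windows had a GC content of 58.3% to 76.7%, above the median of 52.7% over all windows, and GC boxes are themselves GC-rich. Klf4 held 4 GC boxes and Klf3 6, where the median window held 0. An E-box (CACGTG) was in 3 of 8 windows (Klf4, Klf6 and Klf15), against 7.15%, and Klf15 held it 3 times. A cAMP response element half-site (TGACG) was in 6 of 8, against 20.8%. None of the motif shares was adjusted for GC content. The site of the MEF2 factors was in 1 window, that of Klf2, against 0.557% of all windows, and begins 118 bases before the start. With 9 flanking bases on each side and the site in capitals, it reads as follows.
Klf2 MEF2 site (chr8:72318935-72318962, plus strand): ataccgcggCTAAATTTAGgctgagccc
No KLF window held the glucocorticoid response core ACANNNTGT (6.85% of all windows) or the CArG box that serum response factor reads (1.63%). These matches describe letters and are not evidence of binding. The level Klf13 and the high Klf2 and Klf4 all held GC boxes.

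Of the 10 genes, 8 stood higher in both quiescent McSC libraries than in any melanocyte library, where 36.4% of all tested genes did so, 0 stood higher in every melanocyte library (38.1%), and 2 (Klf10 and Klf13) overlapped. At least 2-fold higher in quiescent McSC were 7, against 19.3% of all tested genes, and 0 were at least 2-fold higher in melanocytes (23.8%). The median log2 fold change of the 10 was -2.44. Nothing is read from these shares, since the genes were listed with the comparison known. The differences fell into 3 sizes: Klf2, Klf4, Klf6 and Klf9 with folds from 14.4 to 21.6, Klf7, Klf5 and Klf15 with folds from 2.61 to 8.90, and Klf3, Klf10 and Klf13 under 2-fold. Nearest to 2-fold were Klf15 on the inside (log2 fold change -1.39) and Klf10 (0.41) and Klf3 (-0.29) on the other side.

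**Figure D2:**
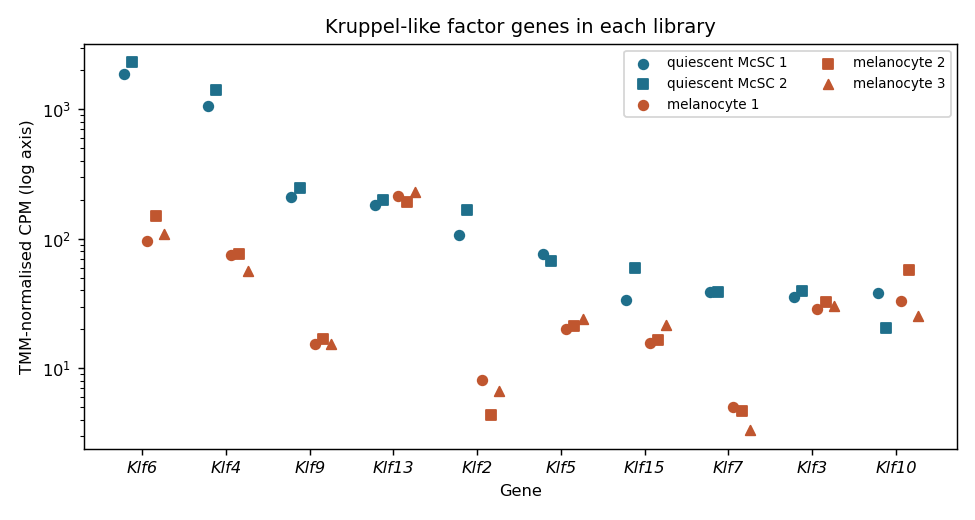
Level of the 10 KLF genes in each library (CPM after TMM normalisation, log axis), ordered by mean level in quiescent McSC; each point is a library (blue, quiescent McSC; orange, melanocytes). Points of the groups are far apart for Klf6, Klf4, Klf9, Klf2 and Klf7 and interleave for Klf13 and Klf10.

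The activating KLFs include the 2 genes of the list with the highest CPM in quiescent McSC. Klf6, an immediate early gene and growth suppressor (chromosome 13, 5861489 to 5870393), read 1888 and 2304 CPM in quiescent McSC replicates 1 and 2, and 96.4, 149.9 and 109.5 CPM in melanocyte replicates 1 to 3. The lowest quiescent McSC library stood far above the highest melanocyte library, and the log2 fold change was -4.14 ± 0.25 (SE). Klf4, which restrains the cell cycle, builds the epidermal barrier and is a pluripotency factor (chromosome 4, 55527137 to 55532475), read 1059 and 1416 CPM in quiescent McSC. It read 74.5, 76.1 and 56.1 CPM in melanocytes, a log2 fold change of -4.17 ± 0.22. Both genes were higher in quiescent McSC replicate 2 than in replicate 1, by 1.34 times for Klf4 and 1.22 times for Klf6.

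Klf2, known for quiescence of T cells and for the response of endothelium to flow (chromosome 8, 72319062 to 72321654), read 106.8 and 166.4 CPM in quiescent McSC. It read 8.11, 4.34 and 6.68 CPM in melanocytes, a fold of 21.6 and the largest difference of the 10 (log2 fold change -4.43 ± 0.32). Endothelial markers were higher in melanocytes, and their part in the Klf2 level was not tested. Their summed level over 8 genes was 1.77 to 2.5 CPM in quiescent McSC, with Cldn5 at 0 counts there, and 31.8 to 62.8 CPM in melanocytes, and all 8 were called higher in melanocytes.

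Klf5, a growth-promoting factor of basal epithelium (chromosome 14, 99298691 to 99313412), read 76.3 and 66.9 CPM in quiescent McSC and 20, 21.3 and 24.0 CPM in melanocytes. The groups were well apart, at a log2 fold change of -1.72 ± 0.13. Klf7, a factor of neuronal development (chromosome 1, 64029448 to 64122345), read 39.0 and 38.6 CPM in quiescent McSC and 4.98, 4.68 and 3.31 CPM in melanocytes, at a log2 fold change of -3.15 ± 0.21. The quiescent McSC libraries were nearly equal for Klf7. Its value is uncertain, since 39.3% of its exon length in GENCODE M21 lies over exons of a non-coding gene on the other strand (Gm26649), and these counts cannot separate strands.

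Of the Sin3-binding repressors, Klf9 was high in quiescent McSC while Klf10 and Klf13 were not. Klf9, a gene induced by glucocorticoid and thyroid hormone (chromosome 19, 23141226 to 23168129), read 212.1 and 247.1 CPM in quiescent McSC and 15.4, 16.8 and 15.5 CPM in melanocytes. The libraries of each group were close together, and the log2 fold change was -3.85 ± 0.12. Klf13, known from T cells and heart (chromosome 7, 63886351 to 63938915), read 182.9 and 199.9 CPM in quiescent McSC and 213.3, 193.2 and 230.1 CPM in melanocytes. The groups overlapped (log2 fold change 0.15 ± 0.13), or 0.38 with library size as the only scaling. Klf10, a gene induced by TGF-beta (chromosome 15, 38291464 to 38300711), read 38.2 and 20.4 CPM in quiescent McSC and 33.2, 57.5 and 25.2 CPM in melanocytes. It varied more within each group than between them (log2 fold change 0.41 ± 0.42), and leaving out 1 library moved the value between -0.03 (without melanocyte replicate 2) and 0.92 (without quiescent McSC replicate 1).

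Klf3, the CtBP-binding repressor of the list (chromosome 5, 64803521 to 64832901), read 35.4 and 39.7 CPM in quiescent McSC and 28.8, 32.6 and 30.5 CPM in melanocytes. The groups did not overlap, but the log2 fold change was -0.29 ± 0.12, and -0.07 with library size only. Klf15, a gene of glucocorticoid response and amino acid metabolism (chromosome 6, 90461043 to 90491803), read 33.5 and 59.7 CPM in quiescent McSC and 15.7, 16.4 and 21.6 CPM in melanocytes. Its log2 fold change was -1.39 ± 0.27, and -0.91 without quiescent McSC replicate 2, so that 6 genes were then at least 2-fold higher in quiescent McSC.

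The quiescent McSC libraries were close for some of the 10 genes and apart for others. The log2 ratio of replicate 2 to replicate 1 lay between -0.19 and 0.29 for 6 of the 10, where the 5th and 95th percentiles of 8482 genes of at least 20 CPM were -0.35 and 0.38. Beyond that range were Klf10 (-0.90), Klf15 (0.83), Klf2 (0.64) and Klf4 (0.42). Klf10 was thus lower in the replicate in which the other 3 were higher. Among the melanocyte libraries the highest stood 1.09 (Klf9) to 2.29 times (Klf10) above the lowest, and the median over the same 8482 genes was 1.23. The melanocyte lineage markers differed 6.40 times among these libraries, with replicate 1 lowest. The 7 KLF genes at least 2-fold higher in quiescent McSC differed 1.09 to 1.87 times there. Without melanocyte replicate 1 the median log2 fold change of the 10 genes was -2.45 and 7 remained at least 2-fold higher in quiescent McSC.

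Compared per length, the order of the genes changed between the groups. Levels were divided by the summed exon length of each gene in GENCODE M21, which includes exons of rare transcripts. In quiescent McSC Klf6 (477 CPM per kb) and Klf4 (406) led and overlapped each other, followed by Klf2 (74.0), Klf9 (47.7), Klf13 (25.4), Klf15 (16.7), Klf5 (13.8), Klf10 (7.01), Klf7 (4.77) and Klf3 (3.34). Except for Klf6 with Klf4 and Klf15 with Klf5, neighbours in that order did not overlap between libraries. In melanocytes Klf13 (28.2 CPM per kb), Klf6 (27.0) and Klf4 (22.6) led, and each overlapped the next. Klf10 (9.24), Klf15 (6.41), Klf5 (4.18), Klf2 (3.45), Klf9 (3.30), Klf3 (2.73) and Klf7 (0.532) followed. There Klf10 overlapped Klf15, Klf5 overlapped Klf2, and Klf2 overlapped Klf9.

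The make-up of the whole family's RNA differed accordingly. Over 26 KLF and SP genes, the summed level was 1101 and 1356 CPM per kb in quiescent McSC and 223.8, 237.6 and 234.1 CPM per kb in melanocytes. Klf6 and Klf4 together made up 70.6% and 73.0% of it in quiescent McSC and 20.7%, 24.9% and 18.5% in melanocytes. The 10 listed genes together held 86.0% and 88.8%, against 46.0%, 49.6% and 43.7%. Klf13 held 1.96% to 2.21% in quiescent McSC and 10.8% to 13.1% in melanocytes at nearly the same CPM. Sp6, at most 0.101% in quiescent McSC, held 13.1% to 18.7% in melanocytes.

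**Figure D3:**
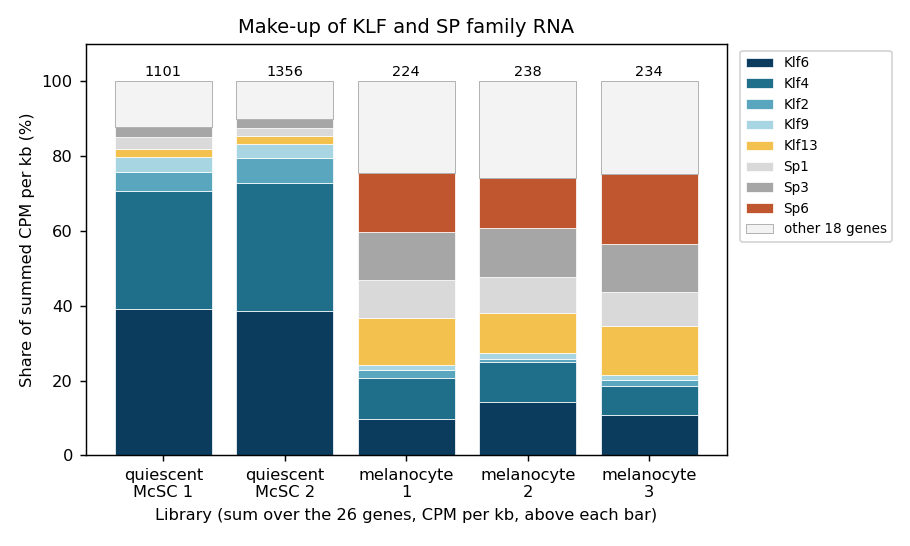
Share of each gene in the summed level (CPM per kb of exon) of 26 KLF and SP genes, 1 bar per library, with the sum above each bar. Klf6 and Klf4 fill most of both quiescent McSC bars (70.6% and 73.0%), and Klf13, Sp1, Sp3 and Sp6 take larger shares in all melanocyte bars.

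The remaining 16 KLF and SP genes are what the choice of the 10 left over. Their numbers of calls are therefore given as a description only. Among the 14 with enough counts, 7 were called toward quiescent McSC and 2 toward melanocytes, and 5 missed the threshold, against 26.2% and 29.1% of all tested genes. Their median log2 fold change was -0.28, against 0.03 for all genes. Klf11, a Sin3-binding relative of Klf10, averaged 118.2 ± 4.32 CPM across the quiescent McSC libraries and 27.4 ± 10.5 CPM across the melanocyte libraries (mean ± SD, n = 2 and 3; log2 fold change -2.10 ± 0.29, edgeR adjusted p = 0.00169). Klf10 itself overlapped between the groups, and the difference between these relatives was not tested. Sp4 (-2.12 ± 0.11), Sp2 (-1.11 ± 0.13), Klf16 (-0.90 ± 0.15) and Sp1 (-0.52 ± 0.11) were also higher in quiescent McSC. So were Klf8 (-1.84 ± 0.45) and Klf12 (-1.31 ± 0.30), the CtBP-binding relatives of Klf3, at 4.61 and 4.32 CPM in quiescent McSC. The calls of Klf8, Klf12 and Sp1 were lost without quiescent McSC replicate 1 (edgeR adjusted p = 0.0527, 0.0697 and 0.0632), which left 4 genes higher in quiescent McSC. Those of Klf8 and Klf12 were also lost without replicate 2 (0.0883 and 0.0626), and that of Klf8 without melanocyte replicate 2 (0.055). The call of Sp1 was also lost with library size only (-0.29, edgeR adjusted p = 0.0615).

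Sp6, the gene of epiprofin, a factor of tooth and hair follicle epithelium, went the other way. It read 4.28 and 4.74 CPM in quiescent McSC and 136.2, 119.8 and 168.0 CPM in melanocytes (log2 fold change 4.97 ± 0.21, edgeR adjusted p = 4.49e-05). Hair matrix and shaft markers moved with it (2952 to 4425 against 18.5 to 46.2 CPM summed), and their part in it was not tested. Klf1, the erythroid KLF, was called higher in melanocytes at 0.847 against 0.209 CPM, a call lost without either quiescent McSC library (edgeR adjusted p = 0.0948 without replicate 1 and 0.0659 without replicate 2), which left 1 gene higher in melanocytes. Sp3 (log2 fold change -0.05 ± 0.10), Sp5, Sp7, Sp8 and Sp9 were not called, and Klf14 and Klf17 had too few counts to be tested, with Klf14 at 0 counts in quiescent McSC. Sp3 stood at 152.2 ± 1.24 against 147.2 ± 7.29 CPM, and its sign turned with library size only (0.17).

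**Figure D4:**
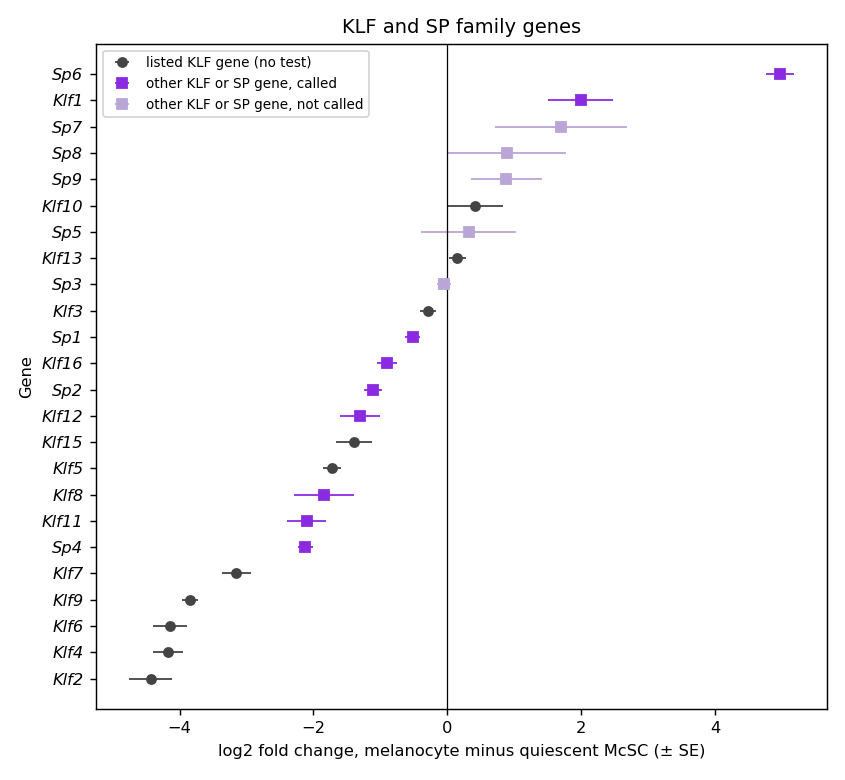
Log2 fold change (melanocyte minus quiescent McSC, bars ± SE) of the 10 listed KLF genes (circles, no test) and the 14 other KLF and SP genes tested (squares; dark, called). Klf2, Klf4, Klf6, Klf9 and Klf7 lie furthest to the quiescent McSC side and Sp6 furthest to the melanocyte side.

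Cofactor genes were called in both directions, in numbers near the background. Their list was chosen with earlier results of these libraries known. Of 13 genes for KLF corepressors, coactivators and ubiquitin ligases, 4 were called toward quiescent McSC and 3 toward melanocytes, and 6 missed the threshold, against 26.2% and 29.1% of all tested genes, with a median log2 fold change of 0.05. The acetyltransferase gene Kat2b was higher in quiescent McSC (108.5 ± 7.14 against 41.2 ± 4.91 CPM; log2 fold change -1.40 ± 0.13). The histone deacetylase genes Hdac1 (0.87 ± 0.12) and Hdac2 (0.71 ± 0.12), partners of Sin3, were higher in melanocytes. Of the Sin3 genes themselves, Sin3a was not called (0.23 ± 0.09). Sin3b was called higher in quiescent McSC (-0.49 ± 0.16), a call not kept with library size only. Ctbp2, the corepressor of Klf3, was higher in melanocytes by 0.40 ± 0.10, a call lost without quiescent McSC replicate 1 (edgeR adjusted p = 0.0517) or replicate 2 (0.115). Ctbp1 stood at 190.7 ± 20.6 against 197.8 ± 29.6 CPM and was not called. The counts were 1 and 6 with library size only, and 1 gene was higher in quiescent McSC without its replicate 2.

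Genes that act upstream of KLF transcription included several higher in quiescent McSC. These genes too were listed with earlier results of these libraries known. Of 14 such genes, 6 were called toward quiescent McSC and 2 toward melanocytes, and 6 missed the threshold, against 26.2% and 29.1% of all tested genes (median log2 fold change -0.28). The 3 MEF2 genes of the list, whose factors switch on Klf2 downstream of the kinase ERK5, were among the 6: Mef2d stood at 207.5 ± 15.2 against 76.6 ± 9.04 CPM, Mef2a differed by -0.96 ± 0.09 and Mef2c by -3.33 ± 0.40. Mapk7, the gene of ERK5 itself, was not called (27.6 ± 3.59 against 32.4 ± 6.62 CPM). Map2k5, a further kinase gene of the list, was called higher in quiescent McSC (-0.38 ± 0.12), a call not kept with library size only. Nr3c1, the glucocorticoid receptor gene and a regulator of Klf9 and Klf15, averaged 183.7 ± 3.39 CPM across the quiescent McSC libraries against 58.3 ± 9.22 CPM (called higher; -1.66 ± 0.15, edgeR adjusted p = 0.000336). Thra, a thyroid hormone receptor gene, was higher in melanocytes (1.08 ± 0.19), as was Trp53 (0.78 ± 0.11). The TGF-beta receptor and SMAD genes of the list were not called, apart from Smad4 (-0.55 ± 0.10), whose call was lost without quiescent McSC replicate 2 (edgeR adjusted p = 0.0517).

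Glucocorticoid-responsive genes stood on the same side as Klf9 and Klf15. Of 14 genes, 10 were called toward quiescent McSC and 0 toward melanocytes, 4 missed the threshold, and the median log2 fold change was -1.61. Of all tested genes 26.2% and 29.1% were called in these directions, but this list too was chosen with earlier results of these libraries known. Cebpd, a transcription factor gene, read 158.2 and 300.1 CPM in quiescent McSC and 3.43, 4.02 and 7.06 CPM in melanocytes (-5.61 ± 0.42, edgeR adjusted p = 0.000192). Zbtb16 (-3.95 ± 0.28), the metallothionein gene Mt1 (-2.34 ± 0.15), Tsc22d3 (-3.94 ± 0.31) and the clock gene Per1 (-2.22 ± 0.38) were also higher in quiescent McSC. Fkbp5, a further glucocorticoid-induced gene, was not called (44.3 ± 21.0 against 42.5 ± 4.39 CPM), and its sign varied with the settings. Several of these genes also respond to stress or cytokines.

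Reported targets of KLF proteins were also called in both directions, in numbers near the background. The list holds both activated targets, such as Cdkn1a, and repressed ones, such as Lgals3. The counts therefore do not show whether targets followed the KLF genes. The target list was also chosen with earlier results of these libraries known. Of 16, 13 had enough counts, of which 4 were called toward quiescent McSC and 5 toward melanocytes, and 4 missed the threshold, against 26.2% and 29.1% of all tested genes (median log2 fold change 0.88, all genes 0.03). Lgals3, the galectin-3 gene that Klf3 represses, had the largest difference toward quiescent McSC, at 2950 ± 183 against 76.8 ± 11.6 CPM (-5.26 ± 0.21). Cdkn1a, the p21 gene that Klf4 and Klf6 activate, stood at 577 ± 104.5 against 138.2 ± 22.9 CPM. Eng, a target of Klf6 (-2.5 ± 0.23), and Prodh, a target of Klf15 (-1.61 ± 0.13), completed the 4. The cyclin genes Ccnb1 (5.40 ± 0.38) and Ccnd1 (3.57 ± 0.25) were higher in melanocytes, as were Smad7 (1.67 ± 0.15), S1pr1 (3.46 ± 0.82) and Nos3 (1.64 ± 0.40). S1pr1 and Nos3, endothelial targets of Klf2, were at 0.317 and 0.461 CPM in quiescent McSC, opposite to Klf2. Their calls were lost without quiescent McSC replicate 2 (edgeR adjusted p = 0.0787 and 0.0838), and that of Nos3 also without replicate 1 (0.0873). Endothelial markers (31.8 to 62.8 against 1.77 to 2.5 CPM) moved with S1pr1 and Nos3, and their part was not tested. The number of targets called toward melanocytes was then 3, and with library size only it was 8.

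Most genes of an immediate early list were higher in quiescent McSC, as were Klf2, Klf4 and Klf6, which are also known as immediate early genes. Klf10, a gene induced by TGF-beta, was not higher there (log2 fold change 0.41 ± 0.42). The list of 25 genes held no KLF genes. It also included the heat shock genes Hspa1a (-3.0 ± 0.29), Hspa1b (-2.48 ± 0.20) and Dnajb1 (-2.6 ± 0.14), all called higher in quiescent McSC. Of the 25 genes, 24 were called higher in quiescent McSC (26.2% of all tested genes). Egr3 was called higher in melanocytes (29.1%), and the median log2 fold change of the list was -2.59. This list was drawn up with its direction in these libraries known. Maff (-4.13 ± 0.11), Nr4a2 (-4.60 ± 0.23) and Myc (-2.35 ± 0.11) had the smallest p-values. The summed level of all 25 genes was 30810 and 47300 CPM in quiescent McSC, 1.54 times higher in replicate 2, and 3548 to 3872 CPM in melanocytes. In the same replicate Klf2 was 1.56 times, Klf4 1.34 times and Klf6 1.22 times higher. Among the other listed KLF genes the ratio was 1.17 for Klf9, 1.78 for Klf15, the highest of the 10, and 0.535 for Klf10. Klf10 also overlapped between the groups, and the ratios did not separate Klf2, Klf4 and Klf6 from the rest.

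Klf4 and Klf5 are also genes of the epidermis. Most suprabasal keratinocyte markers were higher in the quiescent McSC libraries, while basal keratinocyte markers were divided. Of 8 markers, 5 were called higher in quiescent McSC (Krt1, Krt10, Krtdap, Lor and Sbsn), 1 higher in melanocytes (Ivl) and 2 not called, with the call of Lor lost without quiescent McSC replicate 2 (edgeR adjusted p = 0.106). Their summed level was 1298 and 2420 CPM in quiescent McSC, 1.86 times higher in replicate 2, and 274.3 to 400.1 CPM in melanocytes. None was at 0 in either group. Of 5 basal keratinocyte markers, 2 were higher in each group, with sums of 1788 to 2077 CPM in quiescent McSC and 2248 to 3224 CPM in melanocytes. The part of keratinocyte RNA in the Klf4 and Klf5 levels was not tested. Fibroblast, muscle and hair matrix markers were low in quiescent McSC, at 8.79 to 46.2 CPM summed, and the sum of 8 immune markers was 21.8 to 34.8 CPM there and 27.8 to 50.6 CPM in melanocytes. The sum of 4 Schwann cell markers was 423.2 and 427.3 CPM in quiescent McSC and 55.6 to 97.2 CPM in melanocytes, with 2 markers called in each direction.

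**Figure D5:**
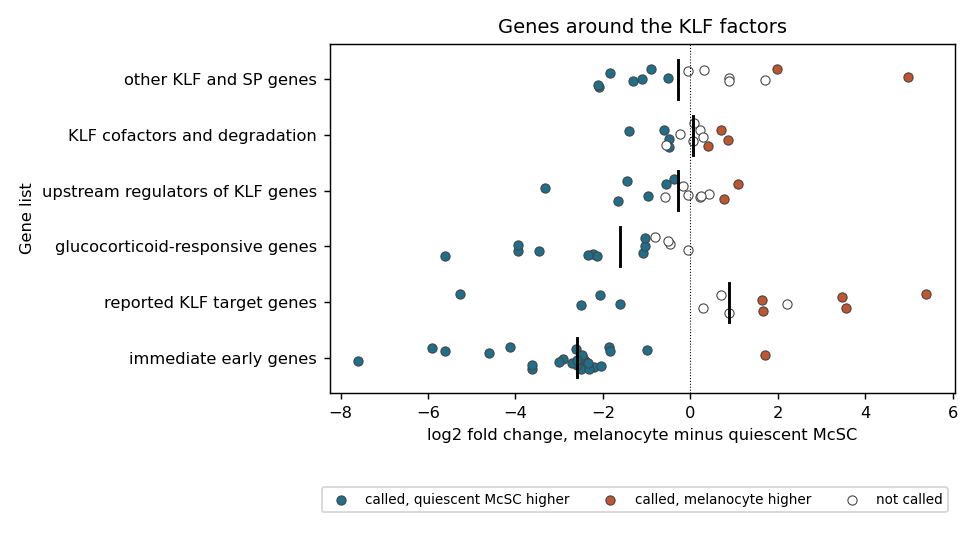
Log2 fold change (melanocyte minus quiescent McSC) of each tested gene in 6 lists related to the KLF genes; filled points were called, open points were not, and black bars are list medians. The glucocorticoid-responsive and immediate early lists lie on the quiescent McSC side (medians -1.61 and -2.59), and the cofactor list is centred near 0 (0.05).

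The genes whose pattern was most like the mean of the 10 were found by Euclidean distance between centred log2(CPM + 1) profiles over the 5 libraries, among 8478 genes of at least 20 CPM. They were the stress-response factor gene Atf4 (distance 0.146), the myosin gene Myo10 (0.161), Cttnbp2nl (0.162), the bromodomain gene Brd2 (0.163) and Mt1 (0.169). Atf4 read 1066 and 1114 CPM in quiescent McSC and 239.7, 267.0 and 252.5 CPM in melanocytes. With 5 libraries in 2 groups, such likeness mostly reflects the difference between the groups.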

How the data were processed

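The authors deposited 1 table of raw counts per gene (24100 Entrez identifiers, 5 libraries), read from its whole numbers and differing totals. The build mm10, STAR 2.5.2a and Salmon 0.8.2 are named without roles, per the submitters' processing notes; which program and annotation gave the counts is not stated in those sources. RefSeq (GRCm38.p6) gave symbols for 24045 identifiers. All libraries entered 1 fit without covariates in edgeR 4.0.16 (R 4.3.3), using filterByExpr, TMM and its two-sided quasi-likelihood test, with Benjamini-Hochberg adjustment over 16953 genes and a threshold of 0.05. The SE is the absolute log2 fold change divided by the root of the F statistic. The procedure was tested on simulated data. Replicates are biological per the labels and differed by more than sampling noise.

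The KLF genes, 6 gene lists and 9 marker lists were chosen with earlier results of these data known. Named were the KLF and SP genes, the 3 called genes of smallest p in each other list and the 5 genes most alike; other genes were named after their values were seen. Alternatives were other size factors, library size only, other filters, DESeq2 1.42.0, a replicate block and leaving out each library. A lone remaining quiescent McSC library is assumed to vary like the melanocytes. A count of 3, taken as the floor, corresponded to 0.0268 to 0.16 CPM, for counting error only.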

Additional observations from a re-analysis of the deposited data

How the results depend on the processing

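The median log2 fold change of the 10 KLF genes lay between -2.49 and -2.39 when a library was left out and was -2.21 with library size only, and the number at least 2-fold higher in quiescent McSC was 7, or 6 without quiescent McSC replicate 2. Of single KLF and SP genes, Klf10 turned sign without melanocyte replicate 2 (-0.03, range -0.03 to 0.92 over left-out libraries). Sp3 turned sign with library size only (0.17). Sp5 turned sign without melanocyte replicate 3 (-0.65, range -0.65 to 0.71 over left-out libraries) and with a replicate block (-0.68). Of other uncalled genes, Ctbp1 turned with the block (-0.07) and when quiescent McSC replicate 1 (-0.06) or melanocyte replicate 3 (-0.07) was left out (range -0.07 to 0.17), and Fkbp5 with library size only (0.17), with the block (0.05) and over left-out libraries (-0.48 to 0.53). The cause was not tested. Leaving out a library gave 4 to 7 other KLF and SP genes higher in quiescent McSC and 1 to 2 higher in melanocytes, 1 to 4 cofactors higher in quiescent McSC and 3 to 7 reported targets higher in melanocytes. With at least 5 CPM in 2 libraries, where fewer genes are tested, 1 other KLF or SP gene and 3 targets were higher in melanocytes. With library size only, 1 cofactor was higher in quiescent McSC, and 6 cofactors and 8 targets in melanocytes. With the replicate block 1 other KLF or SP gene was higher in melanocytes and 2 cofactors in quiescent McSC, the calls of Klf1, Klf12, Sp1, Ctbp2 and Smad4 were lost, and 7412 genes in all were called. The shared numbers do not pair the libraries (correlations of same-numbered deviations 0.0368 and -0.0848), and melanocyte replicate 3 has no partner. The counts of upstream, glucocorticoid-responsive and immediate early genes stayed within 1.5 times in every alternative run. Of KLF and SP genes, depth limits Klf1, Klf14, Klf17, Sp8 and Sp9 most, with means under 1 CPM in both groups.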

Other observations

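Among the uncalled SP genes, single melanocyte libraries stood out. Sp7, the osteoblast factor osterix, read 7.77 CPM in melanocyte replicate 1 and 1.00 and 1.12 CPM in replicates 2 and 3, and the fibroblast and dermal papilla sum was highest in the same replicate (5240 CPM). Sp5, a WNT target, read 10.4 CPM in melanocyte replicate 3 and 1.92 and 3.28 CPM in replicates 1 and 2. Egr3 was the only gene of the immediate early list of 25 called toward melanocytes. Quiescent McSC held 127.2 ± 29.4 CPM and melanocytes 417 ± 55.4 CPM (log2 fold change 1.71 ± 0.21, edgeR adjusted p = 0.000978).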
